A study of Mus musculus with 5 samples.

Results

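A set of 10 genes of the cytotoxic granule, chosen by name, was followed in regulatory T cells (Tregs): the granzymes Gzma, Gzmb, Gzmc and Gzmk, the pore former Prf1 (perforin), the granule components Srgn and Nkg7, and the protease inhibitors Serpinb9, Serpinb6a and Serpinb6b. The genes were chosen with earlier results of these data known. All 10 were in the table of 24084 genes, and 9 of them were among the 11437 genes with enough counts to be tested. The libraries were RNA sequencing of Tregs, the Foxp3-expressing T cells that restrain immune responses, from mice aged 13 days that the labels give as Foxp3-DTR, and the series as Foxp3-DTR/GFP. The allele, which places the receptor for diphtheria toxin and green fluorescent protein under control of Foxp3, was shared by all libraries, and no treatment is given for any of them. Lymph node Tregs came from nodes that drain the skin (3 libraries), skin Tregs from the skin (2 libraries), and the comparison asks how neonatal skin Tregs differ from those of the draining nodes. The sources used here do not say how cells were sorted or how many animals or cells stand behind a library, so the p-values cover the spread among these 5 libraries, part of which may be technical.

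Cytotoxic lymphocytes store granzymes, which are serine proteases, in secretory granules on a proteoglycan scaffold, and perforin opens the way for them into a target cell. Clade B serpins are intracellular protease inhibitors, and some of them protect the cell that carries granzymes from protease that leaks out of its granules. Activated Tregs are known to express granzyme B, and granzymes and perforin are among the means by which Tregs can act on other cells.

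Levels are in CPM (TMM-normalized read counts relative to library size), printed for lymph node libraries 1, 2 and 3 and then for skin libraries 1 and 2, with mean ± SD over n = 3 and n = 2. Fold changes are skin over lymph node, and a gene was called past an adjusted p of 0.05 in edgeR's quasi-likelihood test over all tested genes. Counts assigned to genes ranged from 10468795 to 14595018 per library. The skin libraries detected fewer genes (9192 and 9894) than the lymph node libraries (12173 to 12540). Summed CPM of T cell and Treg markers were 8100 to 9584 in lymph node and 7353 to 7658 in skin libraries, with all 8 markers found in both tissues. Without Ctla4, which was called higher in skin, the other 7 summed to 7423 to 8763 and to 4771 to 5460.1 CPM, a sum added after the values were seen. Cd3e, Cd3d, Cd3g, Cd4 and Cd5 were below every lymph node value in both skin libraries, and Cd5 was called lower. Of all tested genes, 33.5% were below every lymph node value in both skin libraries, and 5.30% were called lower. Foxp3 and Il2ra overlapped between the tissues (log2 fold change 0.05 and -0.11, adjusted p = 0.904 and 0.744 in edgeR). Summed CPM of macrophage and dendritic cell markers were 12.9 to 26.9 in lymph node and 1701 to 2042 in skin libraries, where 14 of the 15 had a count in at least 1 library. In bulk samples, fewer cells of a type and less RNA per cell cannot be told apart.

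Of the 10 members 5 passed the threshold, and the 300 bases around their start sites are shown because they fall into a group that was higher in skin and a pair that had no count there. Each runs from 250 bases before to 50 bases after a start site of RefSeq (build GRCm38.p6, the assembly of mm10), read along the gene. Capitals mark matches on either strand to AP-1 (TGAGTCA), RUNX (TGTGGT), T-box (GGTGTGA), ETS (GGAAGT) and CRE (TGACGTCA) letters, motifs chosen after the members' values were seen.
Gzmb (chr14:56262285-56262584, minus strand): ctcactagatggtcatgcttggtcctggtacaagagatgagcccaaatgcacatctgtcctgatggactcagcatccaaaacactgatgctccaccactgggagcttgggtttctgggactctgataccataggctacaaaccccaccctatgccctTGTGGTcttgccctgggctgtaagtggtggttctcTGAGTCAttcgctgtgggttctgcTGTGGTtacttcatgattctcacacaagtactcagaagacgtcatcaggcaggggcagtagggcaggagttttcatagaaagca
Gzmc (chr14:56234608-56234907, minus strand): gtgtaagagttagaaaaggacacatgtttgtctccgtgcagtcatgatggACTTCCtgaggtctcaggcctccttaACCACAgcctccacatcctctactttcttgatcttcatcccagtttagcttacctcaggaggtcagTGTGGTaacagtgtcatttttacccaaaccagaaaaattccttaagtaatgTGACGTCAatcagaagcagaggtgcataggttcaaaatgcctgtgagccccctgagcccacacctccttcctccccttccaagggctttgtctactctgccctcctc
Nkg7 (chr7:43436888-43437187, plus strand): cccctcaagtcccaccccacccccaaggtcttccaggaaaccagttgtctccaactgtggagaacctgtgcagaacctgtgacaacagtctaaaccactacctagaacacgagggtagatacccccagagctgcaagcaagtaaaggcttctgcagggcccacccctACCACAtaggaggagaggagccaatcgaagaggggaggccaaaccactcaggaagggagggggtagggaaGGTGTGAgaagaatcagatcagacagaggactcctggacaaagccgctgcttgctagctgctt
Serpinb9 (chr13:33004291-33004590, plus strand): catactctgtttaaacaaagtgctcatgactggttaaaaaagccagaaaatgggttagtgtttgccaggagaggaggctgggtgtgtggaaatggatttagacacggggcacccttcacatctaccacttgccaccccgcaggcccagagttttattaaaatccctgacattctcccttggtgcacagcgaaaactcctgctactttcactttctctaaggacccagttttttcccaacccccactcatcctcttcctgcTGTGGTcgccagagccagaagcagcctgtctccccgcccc
Serpinb6b (chr13:32965011-32965310, plus strand): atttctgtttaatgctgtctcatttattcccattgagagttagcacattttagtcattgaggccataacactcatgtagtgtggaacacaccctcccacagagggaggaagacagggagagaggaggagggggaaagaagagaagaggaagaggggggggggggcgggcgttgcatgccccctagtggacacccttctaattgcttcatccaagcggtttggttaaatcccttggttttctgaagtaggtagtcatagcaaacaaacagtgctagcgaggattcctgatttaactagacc

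In the Gzmb window the AP-1 letters began at position -58 from the start site, and RUNX letters at -93 and -34. The Gzmc window held the CRE letters at -57, RUNX letters at -108 and -174 and ETS letters at -200. The Nkg7 window held RUNX letters at -83 and T-box letters at -13. The Serpinb9 window held only RUNX letters, at 11 bases after the start, and the Serpinb6b window held none of the motifs. No printed matches overlapped each other. Among 32851 RefSeq promoter windows of this length, 5.20% held the AP-1 letters, 16.8% RUNX, 3.98% T-box, 23.8% ETS and 1.79% CRE. Among members whose windows are not shown, Gzma, Prf1 and Srgn held RUNX letters, and Prf1, Srgn and Gzmk held ETS letters. Gzmk also held T-box letters, and the Serpinb6a windows held none of the motifs. The RUNX, ETS and T-box letters were thus not particular to members called higher in skin. A match describes the letters and not a bound site. RefSeq start sites can differ from the gene positions given below, which are from GENCODE. By those positions the Gzmb window lies wholly upstream of its gene and the Serpinb9 window wholly inside its gene.

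The granzyme genes split into a pair that was higher in skin Tregs and a pair that was near or at 0. Gzmb (chromosome 14, 56258838 to 56262260, minus strand, mm10) encodes granzyme B, which cleaves after aspartate and starts cell death in target cells. It was at 50.1, 40.3 and 51.3 CPM in the lymph node libraries and at 1431 and 1763 CPM in the skin libraries. Both skin values lay far above all lymph node values, and the libraries of each tissue differed little (1.27-fold from lowest to highest in lymph node, 1.23-fold in skin). The means were 47.2 ± 6.05 and 1597 ± 235 CPM, a rise of 33.8-fold (log2 fold change 5.08, SE 0.23, adjusted p = 0.0124, edgeR quasi-likelihood). Its unadjusted p ranked 1 of the 11437 tested genes, whereas its fold change ranked 130 among the 10060 with counts in both tissues.

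Gzmc (chromosome 14, 56231441 to 56234656, minus strand) encodes granzyme C, another granzyme, whose gene lies next to Gzmb in the granzyme cluster. It was at 14.0, 12.2 and 8.56 CPM in the lymph node libraries and at 95.9 and 133 CPM in the skin libraries. The groups did not overlap, and the fitted rise was 9.83-fold (log2 fold change 3.30, SE 0.54, adjusted p = 0.0452 in edgeR). Without a low-count filter the call was lost (adjusted p = 0.0516). The count of Gzmb exceeded that of Gzmc by 3.57, 3.29 and 5.99 times in the lymph node libraries and by 14.9 and 13.3 times in the skin libraries. The skin ratios lay above all lymph node ratios. On the log2 scale they differed by 1.77, with an exact two-sided permutation p = 0.1, the smallest that 3 against 2 libraries allow.

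Of the stretches of 50 bases in Gzmc transcripts, 4.14% also occur in transcripts of Gzme, Gzmg or Gzmd, whereas none in Gzmb transcripts is shared with another gene. Gzmd, Gzme, Gzmg and Gzmn, which lie in the same cluster, had no count in any library. Gzmf, also in the cluster, had 26, 14 and 0 counts in the lymph node libraries and 0 in both skin libraries (adjusted p = 0.237 in edgeR). Reads that fit several of these copies equally well were not assigned to a gene.

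Gzma (chromosome 13, 113093825 to 113100981, minus strand) encodes granzyme A, the tryptase of cytotoxic granules. It had 32, 11 and 0 counts in the lymph node libraries and 0 in both skin libraries. Lymph node library 3 and the skin libraries were alike at 0, so the groups overlapped. The pooled lymph node level of 1.03 CPM was at least 7.11-fold higher than the skin floor of 0.145 CPM, which a count of 0 over both skin libraries allows (3 counts), and the difference did not pass the test (adjusted p = 0.241 in edgeR). Gzmk (chromosome 13, 113171608 to 113225908, minus strand), the granzyme K gene beside it, had no count in any library, which allows up to 0.0719 CPM over the lymph node and 0.145 CPM over the skin libraries. Of all counts of the 4 granzymes, Gzmb made up 75.5, 75.5 and 85.7% in lymph node and 93.7 and 93.0% in skin Tregs.

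**Figure D1:**
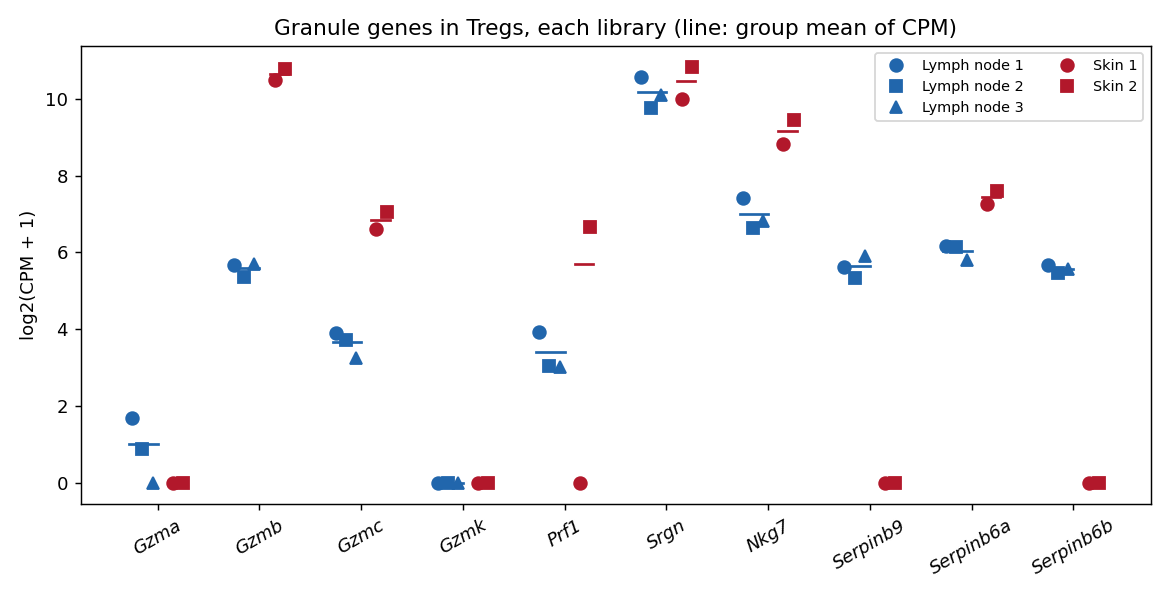
Level of each of the 10 granule genes in every library, as log2(CPM + 1), with lymph node libraries in blue, skin libraries in red and a line at the log2 of each group's mean CPM plus 1. Gzmb, Gzmc, Nkg7 and Serpinb6a have both skin libraries above all lymph node libraries, Serpinb9 and Serpinb6b are at 0 in both skin libraries, and Prf1 is at 0 in skin library 1 but at 101 CPM in the other.

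Perforin did not follow the granzymes in both skin libraries. Prf1 (chromosome 10, 61297833 to 61304680, plus strand) was at 14.3, 7.29 and 7.13 CPM in the lymph node libraries, at 0 in skin library 1 and at 101 CPM in skin library 2. Skin library 1 lay below and skin library 2 above all lymph node values, and the fit over all libraries did not pass the threshold (log2 fold change 2.40, SE 2.19, adjusted p = 0.542 in edgeR). Its direction changed with the libraries and with the method. Limma-voom on all 5 libraries gave -2.01 (adjusted p = 0.689) and edgeR with a replicate block -1.94 (adjusted p = 0.984). Without skin library 2 the fitted log2 fold change was -9.97 (adjusted p = 0.00430), and without skin library 1 it was 3.39 (adjusted p = 0.00102), each with a single skin library whose spread is assumed to be that of the lymph node libraries. Fasl, the ligand of the other main killing pathway, showed the same split of the skin libraries, with 0 counts in skin library 1 and 1147 in skin library 2 against 421 to 516 in the lymph node libraries; it lies outside the rule for named genes and was chosen after its values were seen. A count of 0 in 1 skin library only was found for 31.2% of the 2601 tested genes whose lymph node mean, like that of Prf1 (9.56 CPM), was from 5 to under 20 CPM.

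The gene of the granule scaffold was not called, whereas that of a granule membrane protein was called higher in skin. Their changes were not tested against each other. Srgn (chromosome 10, 62493833 to 62527451, minus strand) encodes serglycin, the proteoglycan core on which granzymes and perforin are packed, and is expressed in many blood cells. It was at 1506, 867 and 1088 CPM in the lymph node libraries and at 1011 and 1825 CPM in the skin libraries. The groups overlapped, and the means of 1154 ± 325 and 1418 ± 575 CPM differed by less than the spread (log2 fold change 0.30, SE 0.35, adjusted p = 0.651 in edgeR). Nkg7 (chromosome 7, 43437073 to 43438249, plus strand), which encodes a granule membrane protein of cytotoxic lymphocytes, was at 171, 98.3 and 112 CPM in the lymph node libraries and at 455 and 698 CPM in the skin libraries. Every skin value was above every lymph node value, and Nkg7 rose 4.54-fold (log2 fold change 2.18, SE 0.35, adjusted p = 0.0440 in edgeR).

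The inhibitors diverged. Serpinb9 (chromosome 13, 33003250 to 33017957, plus strand), the mouse serpin that inhibits granzyme B, was at 48.6, 39.2 and 58.8 CPM in the lymph node libraries (692, 500 and 866 counts) and had no count in either skin library. Serpinb6b (chromosome 13, 32965209 to 32979067, plus strand), a relative in the same serpin cluster, was at 49.9, 42.8 and 46.3 CPM (710, 546 and 681 counts) and likewise had no count in skin. Both fell: the pooled lymph node levels were at least 340.4-fold and at least 320.4-fold higher than the skin floor of 0.145 CPM, and each had an adjusted p of 0.0381 in edgeR. Both genes passed the low-count filter only through the lymph node libraries. With no skin counts there is no skin spread to measure, so these p-values rest on the lymph node spread and on spread shared across genes. The bounds cover counting error and not transcripts lost before sequencing. Of the 6660 genes whose lymph node mean was 20 CPM or more, 145 (2.18%) had no count in either skin library.

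Serpinb6a (chromosome 13, 33917918 to 34002794, minus strand), which encodes a broadly expressed serpin of the same clade, went the other way in its values. It was at 70.5, 69.5 and 55.3 CPM in the lymph node libraries and at 153 and 195 CPM in the skin libraries. Both skin values exceeded all lymph node values by a fitted 2.67-fold, but the difference just missed the threshold (log2 fold change 1.42, SE 0.33, adjusted p = 0.0552 in edgeR). It passed with the stricter low-count filter (adjusted p = 0.0432), in limma-voom (0.0255) and in DESeq2 (0.000586), fits that called 4.22%, 4.95% and 9.44% of all genes higher. The gene overlaps Nqo2, Ripk1 and 1110046J04Rik on the other strand. Of its stretches of 50 bases, 25.1% also occur in transcripts of other genes, mostly those 3, and whether strand was used in counting is not known, so some reads may belong to those neighbors. The shares were 0.378% for Serpinb9, with Serpinb9b, and 2.92% for Serpinb6b, mostly with Serpinb6c. Serpinb6c, Serpinb6d and Serpinb6e had no count in any library, and Serpinb9b had 37 counts in lymph node library 1 and none elsewhere.

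**Figure D2:**
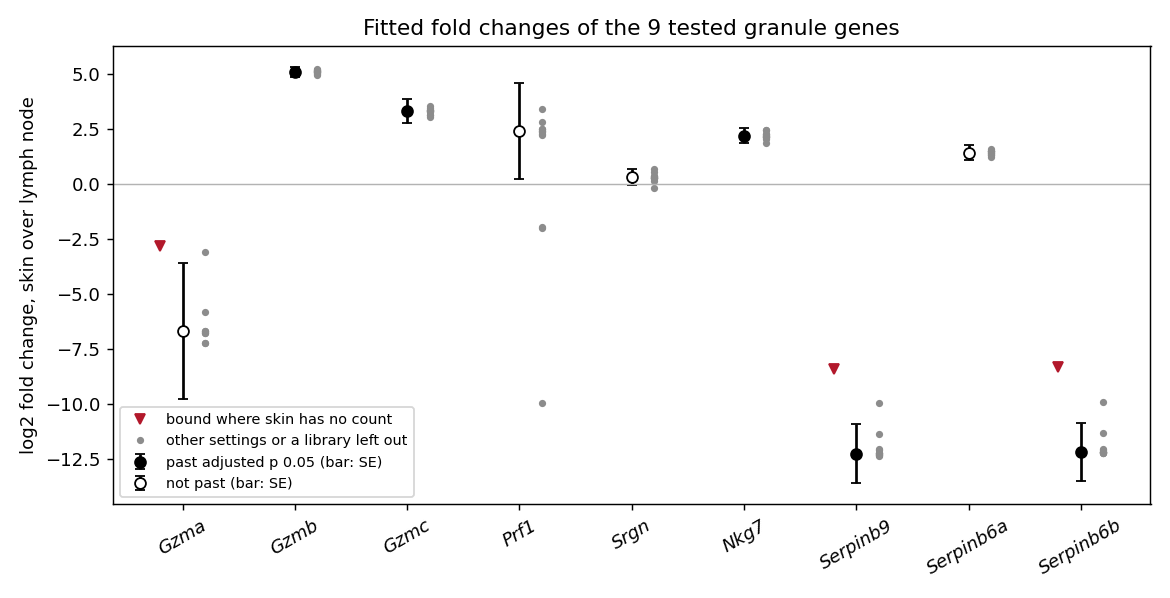
Log2 fold change of skin over lymph node for the 9 tested granule genes (circles, filled where the adjusted p was under 0.05, bars SE), with the values under up to 12 other settings or with a library left out (grey points) and the bound against the skin floor where skin had no count (red triangles). Gzmb lies at 5.08 and between 4.91 and 5.22 in all other fits, Prf1 changes sign, and the fitted values of Gzma, Serpinb9 and Serpinb6b depend on the prior count, so their bounds of -2.83, -8.41 and -8.32 are the values to read.

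Of the 9 tested members, 3 were called higher and 2 lower. Of all tested genes, 275 (2.40%) were called higher and 606 (5.30%) lower. For 4 tested members both skin values exceeded every lymph node value, and for 2 both were below every one, against 16.8% and 33.5% of all tested genes. The median log2 fold change was 1.42 over the tested members and -0.21 over all tested genes. The members were chosen with earlier results of these data known, so neither these counts nor the medians can show an excess over all genes. Members without counts in skin passed the filter on low counts only through the lymph node libraries. Together the 10 members took 0.122 to 0.192% of gene counts in lymph node Tregs and 0.312 and 0.451% in skin Tregs. All 5 members found in both skin libraries (Gzmb, Gzmc, Srgn, Nkg7 and Serpinb6a) were higher in skin library 2 than in skin library 1, by 1.23-fold for Gzmb to 1.80-fold for Srgn. The share of all tested genes that were higher in skin library 2 is not given here, so this may not be particular to the members.

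The calls depended on the number of lymph node libraries. Without any 1 of them edgeR called 0 members and 0 genes at all, although Gzmb, Gzmc, Nkg7 and Serpinb6a then still had an unadjusted p under 0.05 with higher values in skin, and Serpinb9 and Serpinb6b with lower values, in each of the 3 fits. The smallest adjusted p for Gzmb in those fits was 0.113.

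Per kilobase of annotated exon, which allows levels of different genes to be compared, the order of the members changed between tissues. In lymph node Tregs Srgn led at 525 ± 148 CPM per kb, followed by Nkg7 at 139 ± 42.1, Gzmb at 32.9 ± 4.21 and Serpinb6b at 20.5 ± 1.56. Serpinb9 (14.0 ± 2.81), Gzmc (13.0 ± 3.13) and Serpinb6a (12.0 ± 1.57) came next and did not differ beyond their spread. Prf1 was at 3.70 ± 1.57, Gzma at 1.03 ± 1.13 CPM per kb, and Gzmk at 0. Gzmb ranked 1653 of the 10941 tested genes with a length.

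In skin Tregs Gzmb led at 1112 ± 164 CPM per kb and ranked 20 of the 10941 genes. Srgn (646 ± 262) and Nkg7 (631 ± 187) followed and did not differ from each other beyond their spread. Gzmc was at 128 ± 28.9, Serpinb6a at 32.1 ± 5.46 and Prf1 at 19.6 ± 27.7 CPM per kb, with the last 2 overlapping. The exon length of Serpinb6a (5409 bases) joins all its annotated isoforms, and its counts may include reads of overlapping neighbors. Its level per kb is therefore uncertain. The other exon lengths also join annotated isoforms, and Srgn has RefSeq start sites at different positions. In CPM, Gzmb was above Srgn in skin library 1 (1431 against 1011) but below it in skin library 2 (1763 against 1825). The order of Gzmb and Srgn in skin thus depends on the lengths used.

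Within a library, the Gzmb level per kb was 0.0509, 0.0711 and 0.0721 times that of Srgn in the lymph node libraries but 2.17 and 1.48 times in the skin libraries. Against Serpinb6a the ratio was 2.68, 2.19 and 3.49 in the lymph node and 35.3 and 34.1 in the skin libraries. Against Serpinb9 it was 2.51, 2.50 and 2.12 in the lymph node libraries, and it has no value in skin, where Serpinb9 had no count. Serpinb9 and Serpinb6b made up 26.1 to 35.4% and 43.0 to 45.0% of the summed level per kb of the 3 serpins in lymph node Tregs, and Serpinb6a was the only one of the 3 with counts in skin Tregs.

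**Figure D3:**
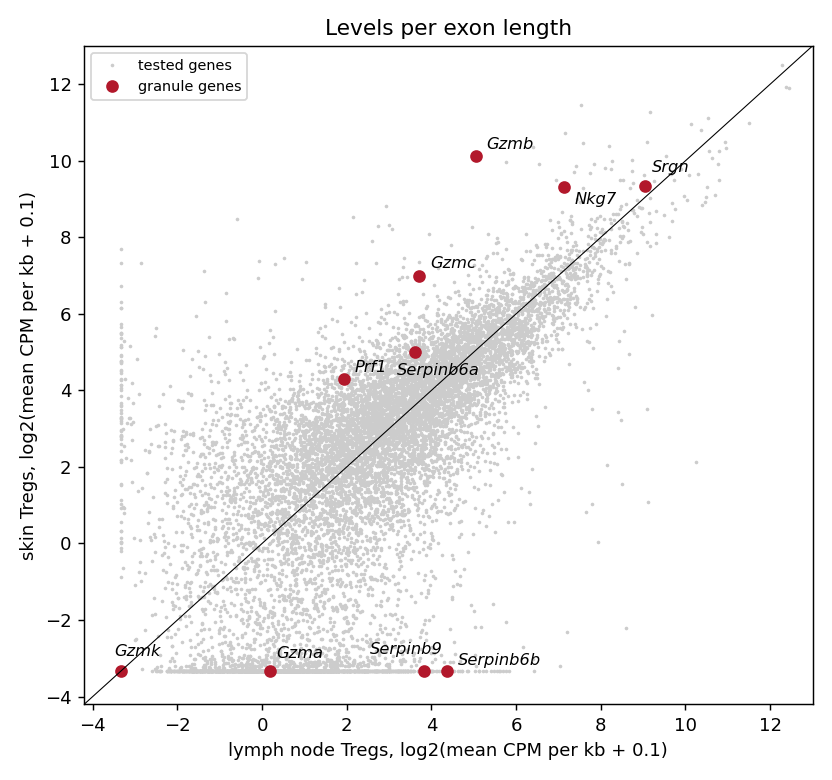
Mean level per kb of exon in lymph node Tregs (x axis) and skin Tregs (y axis), both as log2(CPM per kb + 0.1), for tested genes (grey) and the 10 granule genes (red), with a line of equal levels. Gzmb moves from 32.9 to 1112 CPM per kb, Srgn stays near the line, and Serpinb9, Serpinb6b, Gzma and Gzmk lie at the bottom with no count in skin.

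Other genes of the granule pathway, in 7 lists of 75 genes, showed few calls. These lists too were chosen with earlier results of these data known. The table held 74 of them and 55 were tested, with 3 higher, 2 lower and 50 not past the threshold, and a median log2 fold change of 0.32 (all tested genes: 2.40% higher, 5.30% lower, median -0.21). Among granzyme-activating proteases and granule cathepsins, Ctsw, which encodes a cathepsin of cytotoxic lymphocytes, was at 479, 409 and 487 CPM in the lymph node libraries and at 0 and 3.50 CPM in the skin libraries (adjusted p = 0.0491 in edgeR). The other 4 tested genes of that list did not pass. Ctsl, a cathepsin gene, just missed the threshold at 20.9, 8.07 and 22.5 CPM in the lymph node and 0 and 0.0999 CPM in the skin libraries (edgeR adjusted p = 0.0508). Ctsc, the protease that activates granzymes, had a log2 fold change of 0.30 (adjusted p = 0.428), Cst7, a cathepsin inhibitor, one of -0.22 (adjusted p = 0.796), and Ctsh, a further cathepsin, one of 3.48 (adjusted p = 0.402). Ctsh had 1, 41 and 70 counts in the lymph node libraries, 641 in skin library 1 and 1 in skin library 2. Its positive fold change thus rests on skin library 1. Ctsl, Ctsc, Cst7 and Ctsh fall outside the rule for named genes and were added after their values were seen.

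Of 11 genes for sorting to granules and granule biogenesis, only Igf2r passed. This gene encodes the large mannose 6-phosphate receptor, which carries enzymes to lysosomes, and it fell from 505 ± 62.9 to 85.1 ± 56.5 CPM, a log2 fold change of -2.57 (SE 0.50, adjusted p = 0.0484 in edgeR). Of 16 tested genes for granule docking and release, only Kif5b, a kinesin motor gene, passed, rising from 119 ± 5.70 to 277 ± 14.6 CPM (adjusted p = 0.0481 in edgeR). In that list 14 of 16 log2 fold changes were positive, against 44.3% of all tested genes, and the other 2 were the largest in size. These were Snap23, a membrane fusion gene at 129, 118 and 163 CPM in lymph node and 1.68 and 0 CPM in skin libraries (edgeR adjusted p = 0.0536), and Vamp7, another, with a log2 fold change of -2.55 (adjusted p = 0.0653), both taken after their values were seen. Of 15 other clade B serpins, a listed part of that family, 11 had no count in any library. Serpinb1a, an inhibitor of neutrophil-type serine proteases, rose from 5.92 ± 2.18 to 98.3 ± 60.5 CPM, a log2 fold change of 4.05 (SE 0.75, adjusted p = 0.0470 in edgeR).

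None of the 12 granzyme substrates and death ligand genes passed. The most abundant, Nme1 and Set, differed by -0.36 and -0.20 on the log2 scale (edgeR adjusted p = 0.386 and 0.650). Among 8 transcription factor genes linked to granzymes and perforin, Id2 rose from 75.0 ± 32.5 to 758 ± 228 CPM (adjusted p = 0.0381 in edgeR). Eomes and Tbx21, the T-box factors of cytotoxic lymphocytes, had 2 to 32 and 0 to 21 counts in the lymph node libraries and none in skin. Prdm1 and Runx3 differed by 2.77 and 2.34 on the log2 scale without passing (edgeR adjusted p = 0.0721 and 0.0976); these 4 genes were taken after their values were seen.

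**Figure D4:**
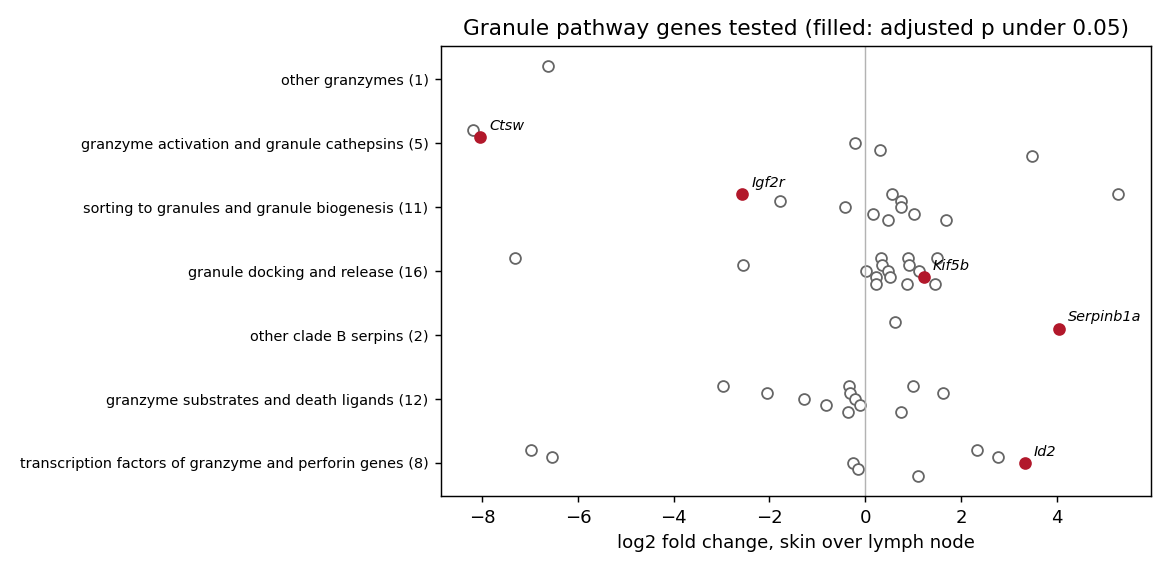
Log2 fold change of skin over lymph node for the 55 tested granule pathway genes by list, with the number tested in brackets and filled red circles where the adjusted p was under 0.05. Ctsw and Igf2r are called lower and Kif5b, Serpinb1a and Id2 higher, and 50 open circles lie on both sides of 0.

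Markers of other granule-bearing cells were read in the same libraries. Of 11 mast cell and basophil markers 10 had no count in skin, and 8 of them had none in lymph node either. The markers summed to 15.3 to 26.4 CPM in lymph node and 12.8 and 0 CPM in skin libraries. Cd8a had no count in skin, and the 3 markers of CD8 T cells summed to 47.4 to 76.2 CPM in lymph node and 31.3 and 0 CPM in skin libraries. The 7 neutrophil markers in the table had no count in skin, and 6 of them had none in lymph node either. The NK cell receptor genes Ncr1, Klrb1c, Klre1, Klra4, Klra8 and Klra9, and Eomes, also had no count in skin. Of these genes only Klrb1c and Eomes had counts in lymph node. The summed CPM of the 11 NK cell and ILC1 markers was nevertheless 3.51 to 8.39 in lymph node and 207 and 651 in skin libraries, from Cd244, Fcgr3, Tyrobp and Klri2, the first 3 of which macrophages also express. Klri2, also an NK cell receptor gene, had no count in lymph node and 124 and 350 counts in the skin libraries (adjusted p = 0.0514 in edgeR).

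Of the 15 macrophage and dendritic cell markers 11 were tested. Of these, 6 were called higher and 0 lower in skin, against 2.40% and 5.30% of all tested genes. For 10 markers both skin values were above all lymph node values, against 16.8% of all tested genes. The marker lists were also chosen with earlier results of these data known. Lyz2 and C1qb were the most abundant. Srgn and Serpinb6a are also expressed by macrophages. Only genes averaging at least 5 on the log2 CPM scale were searched for likeness to Gzmb. The 5 closest to it across the 5 libraries, by root mean square difference of centered log2 CPM, were Lyz2 (0.384), Dusp1 (0.440), F13a1 (0.466), Ctla2a (0.484) and Arl5a (0.505). With 3 against 2 libraries this difference depends mainly on the tissue fold change. On the log2 scale that was 4.24 to 5.90 for these 5 genes and 5.08 for Gzmb. Whether they share a cell source with Gzmb was not tested. Lyz2, which encodes a lysozyme of myeloid cells, averaged 8.61 ± 3.23 CPM over the lymph node and 412 ± 49.5 CPM over the skin libraries. F13a1 encodes a coagulation factor subunit of macrophages and Dusp1 a phosphatase induced by stress. Keratinocyte and fibroblast markers summed to 3.06 to 4.70 CPM in lymph node and 73.4 and 113 CPM in skin libraries, and B cell markers to 79.3 to 214 and to 22.1 and 72.3 CPM. The part of these cells in the granule gene values was not tested.

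**Figure D5:**
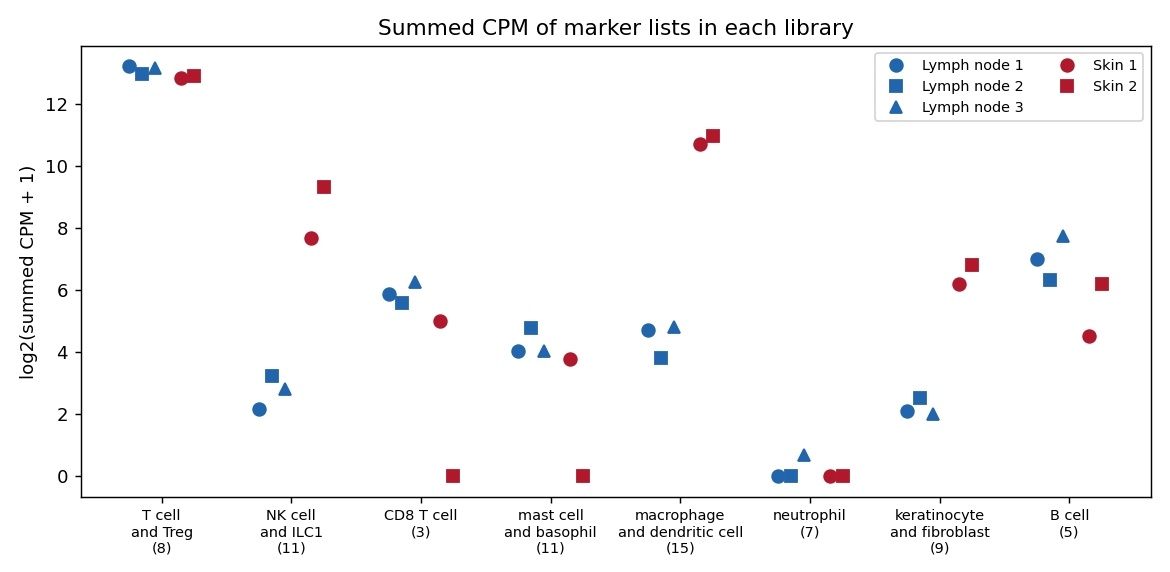
Summed CPM of each marker list in every library, as log2(summed CPM + 1), with the number of markers found in the table in brackets, lymph node libraries in blue and skin libraries in red. T cell and Treg markers sum to 8100 to 9584 CPM in lymph node and to 7353 and 7658 CPM in skin, macrophage and dendritic cell markers are at 1701 and 2042 CPM in skin against at most 26.9 CPM in lymph node, NK cell and ILC1 markers and keratinocyte and fibroblast markers are also above all lymph node values in both skin libraries, and mast cell, CD8 T cell and neutrophil markers are not.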

How the data were processed

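The authors deposited whole-number counts per gene symbol for 5 libraries of sorted Tregs, with no normalization; the header was read as shifted by 1 cell. Per the submitters' processing notes, reads were processed with CASAVA (1.8.2) and TopHat2 (2.0.12, on Bowtie2 2.1.0.0) on mm10 and counted with HTSeq (0.6.1); the sources used here give neither options nor strand setting. Per the labels' protocols, cDNA came from a SMARTer ultra-low-input kit (PCR-amplified). The 5 HTSeq summary rows entered neither library sizes nor tests; non-unique alignments were 64.5 to 72.0% of all counts, counts outside genes 8.35 to 14.0% and counts shared between genes 0.400 to 0.433%, so genes with near-identical copies are undercounted.

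Counts were fitted with edgeR 4.0.16 in R 4.3.3 (filterByExpr with minimum count 10, TMM, quasi-likelihood F test, Benjamini-Hochberg over 11437 genes; SE is the log2 fold change divided by the square root of F). The fitting function was tested on simulated data. Alternatives used DESeq2 1.42.0, limma 3.58.1, other scalings and filters, a replicate block, and each library left out. A 0 allows 3 counts over a group; this covers counting error only. Bounds divide pooled CPM by that floor. Positions and exon lengths are from GENCODE M21 (GRCm38, which is mm10), matched by symbol, and promoters from RefSeq for all 10 members. Members and lists were chosen with earlier results of these data known. The rule named all members, called genes of the pathway lists, the 2 most abundant of a list with none, the 2 most abundant markers of each list and the 5 genes nearest Gzmb among those averaging at least 5 in log2 CPM.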

Additional observations from a re-analysis of the deposited data

How the results depend on the processing

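The direction of Gzmb, Gzmc, Nkg7, Serpinb6a, Serpinb9 and Serpinb6b was the same in all 12 alternatives. For Prf1, limma-voom gave a log2 fold change of -2.01 and leaving out skin library 2 gave -9.97; leaving out skin library 1 instead gave 3.39. For Srgn, leaving out skin library 2 gave -0.20 and leaving out skin library 1 gave 0.66. With 1 library left out at a time, 0 to 5 members were called higher and 0 to 3 lower, 0 to 15 and 0 to 11 pathway genes, and 0 to 2110 and 0 to 3955 of all genes; the 0 values came from leaving out any lymph node library, where 677 to 769 genes higher and 1684 to 1730 lower had an unadjusted p under 0.05 in edgeR. Leaving out a skin library keeps a single skin sample that is assumed to vary like the lymph node samples.

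Without a low-count filter edgeR called 1 pathway gene higher and 0 lower, and 136 and 179 of all genes; at an unadjusted p under 0.05 all genes numbered 1282 and 2131. With the stricter filter it called 4 pathway genes lower, and 419 and 972 of all genes. DESeq2 called 7 and 5 pathway genes and 1220 and 2140 of all genes, limma-voom 4 pathway genes lower and 566 and 1665 of all genes. The causes were not tested.

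Libraries of the 2 tissues share replicate numbers. The correlations of deviations across genes between same-numbered libraries were -0.03 and -0.02. With only 2 skin libraries these values cannot settle a pairing. Whether same-numbered libraries share animals or a batch is not known. With the replicate block, edgeR called 1 member higher (Gzmb, adjusted p = 0.0283) and 0 lower, 0 pathway genes in either direction, and 11 and 10 of all genes (331 and 441 at an unadjusted p under 0.05), and the Prf1 log2 fold change was -1.94. This fit leaves 1 residual degree of freedom. Depth limits Gzma, Gzmf and Gzmk, which had at most 32 counts in any library.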
